A study of Mus musculus with 16 samples.

Results

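The genes examined here are 10 members of the transforming growth factor beta (TGF-beta) pathway in microglia, the resident macrophages of the brain. They were chosen by symbol for their place in the pathway: the ligand Tgfb1, its anchoring and activating partner Nrros, the receptors Tgfbr1 and Tgfbr2, the signal carriers Smad2, Smad3 and Smad4, and the negative feedback genes Smad7, Skil and Ski. All 10 were found among the 57010 rows of the count table, and all 10 were among the 18227 genes that had enough counts to be tested. The study asked how microglia of the olfactory bulb differ between wild-type mice and a mouse model of Alzheimer's disease at an early age. The mice were 2 months old, and total RNA of their microglia gave 16 sequencing libraries: 4 WT female, 4 KI female, 4 WT male and 4 KI male. WT mice were C57BL/6J. KI mice carried App NL-G-F, in which the mouse amyloid precursor protein gene holds a humanised amyloid-beta segment with the Swedish, Arctic and Iberian mutations under its own promoter, so that every cell that uses App carries them, and not microglia alone. Microglia were selected with beads against CD11b, a surface protein that other myeloid cells also carry, over 2 successive columns.

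TGF-beta is secreted in a latent form, bound to its own propeptide. In microglia NRROS (also called LRRC33) holds this latent complex at the cell surface, where integrins release the active ligand. The ligand joins TGFBR2 to TGFBR1, TGFBR1 phosphorylates SMAD2 and SMAD3, and these enter the nucleus with SMAD4 to act on target genes. SMAD7 blocks and removes the activated receptor, SKI and SKIL repress the Smad complexes, and Smad7 and Skil are themselves direct targets, so that their transcripts are commonly read as an account of recent signalling. Microglia depend on this pathway for their mature identity, and mice without it in the brain lose homeostatic microglia genes.

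Libraries held between 9052932 and 18117286 counts, and 3 counts, the level below which a gene is treated as not detected, stood for 0.166 to 0.331 CPM of the library total, which covers counting error only. All other CPM values are counts scaled to a common library size with TMM factors. Each member had at least 456 counts in every library. Xist and Ddx3y were as the sex labels state in all 16 libraries. The counts hold no base calls, so the knock-in itself was not checked, and App was at 371 to 462 CPM in WT and 388 to 423 CPM in KI libraries. The summed level of 10 microglia markers was 19160 to 22781 CPM in WT and 19219 to 22412 CPM in KI, with 0 of 10 called by edgeR, DESeq2 or limma and 0 at an unadjusted p under 0.05. The summed level of 12 neuron markers was 635 to 1033 CPM in WT and 785 to 1522 CPM in KI. Of the 12, 6 were higher at FDR below 0.1, which 14.8% of all tested genes passed in either direction. The 8 oligodendrocyte markers summed to 236 to 440 CPM in WT and 290 to 423 CPM in KI, with 3 higher at FDR below 0.1. The part of these cells' RNA in the results below was not tested, and in bulk libraries fewer cells of a type and less RNA per cell cannot be told apart.

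Among the 10 genes, the receptor Tgfbr1 was the most abundant transcript for its length and Smad2 and Smad4, which carry the signal, were the least. Per kilobase of exon, Tgfbr1 was at 219 ± 19.6 CPM (SD, n = 16). Ski followed at 80.1 ± 4.86, Tgfbr2 at 65.4 ± 3.0, Skil at 52.7 ± 8.58 and Tgfb1 at 52.5 ± 4.24 CPM per kilobase. Lower levels were measured for Smad7 (33.7 ± 6.87), Smad3 (21.5 ± 1.78), Nrros (12.6 ± 1.54), Smad4 (7.81 ± 0.513) and Smad2 (5.04 ± 0.323). The ranges over the 16 libraries overlapped between neighbours in this order for Ski and Tgfbr2, Tgfbr2 and Skil, Skil and Tgfb1, and Smad7 and Smad3, and were apart for the other neighbours. With the length of the longest transcript in place of all exons, Tgfb1 moved from position 5 to position 2, so its place depended on which length was used.

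Between genotypes, Smad7, Skil and Nrros were lower in KI microglia, and the ligand, both receptors and the Smads that carry the signal did not pass the test. Over both sexes Smad7 fell by 22.5%, Skil fell by 18.2% and Nrros fell by 13.4%. By edgeR's quasi-likelihood test with sex as a term, 3 of 10 members were below a Benjamini-Hochberg FDR of 0.1, all 3 lower in KI, where 14.8% of all tested genes passed in either direction and 7.82% passed as lower. The study's call adds an absolute log2 fold change above 0.5: 0 of 10 members met it, against 8.64% of all tested genes (4.30% lower, 4.33% higher). At an unadjusted p under 0.05 there were 3 members, and DESeq2 and limma also called 0 of 10 and put the same 3 genes below an FDR of 0.1. The median log2 fold change of the members was -0.08, beside -0.0014 for all tested genes, and 7 of 10 were below 0, beside 50.4% of all tested genes. The labels number replicates without naming animals, and a reporting form of the study mentions technical replicates for sequencing, so the p-values measure the spread between these libraries.

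**Figure D1:**
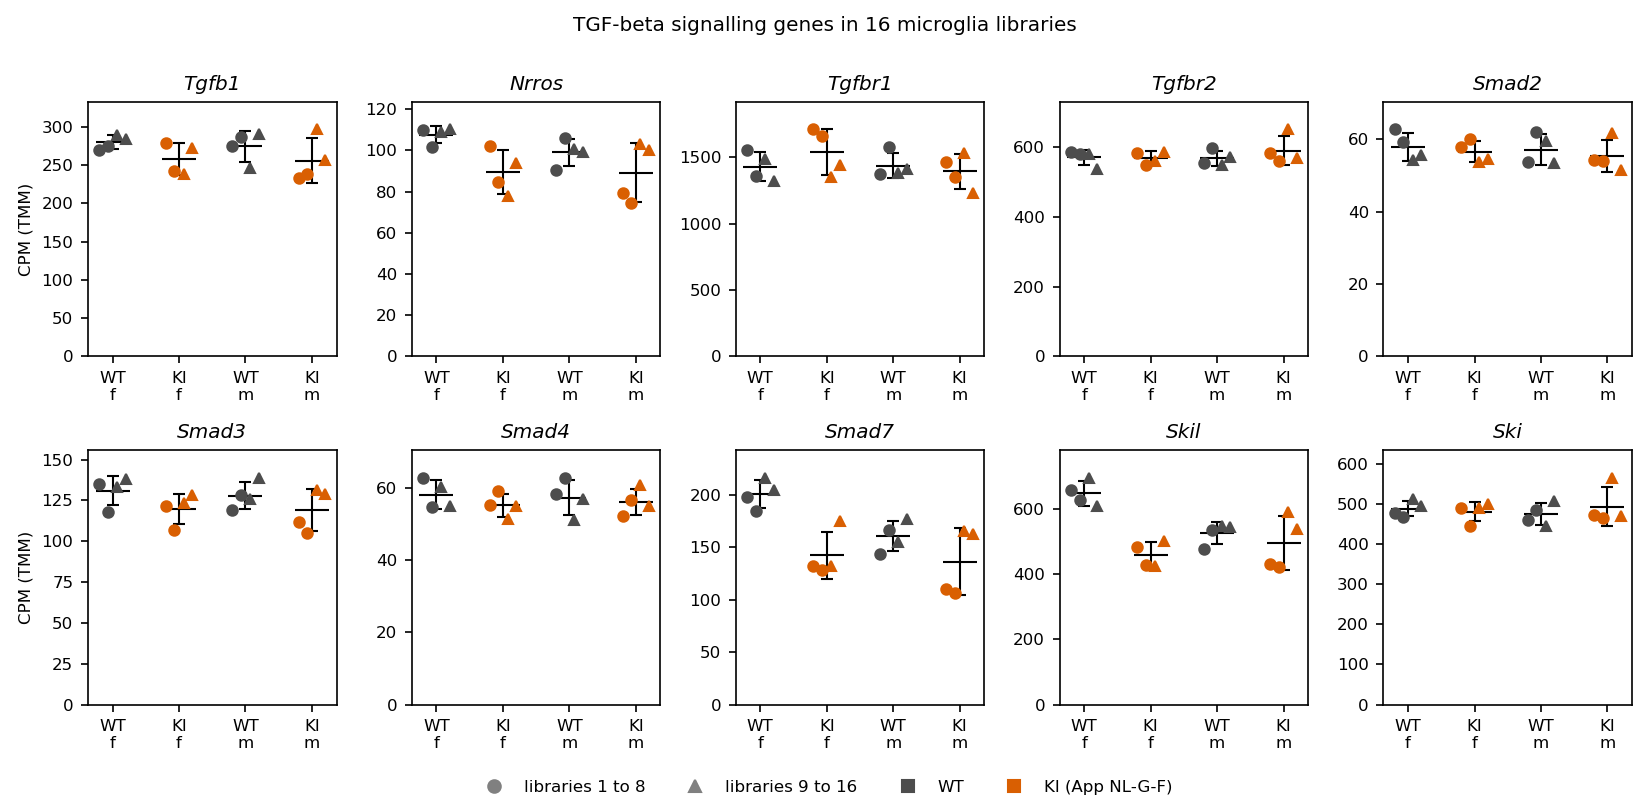
CPM scaled by TMM (vertical axes, from 0) of the 10 genes in 16 libraries, by genotype and sex (f female, m male). Each point is a library, circles stand for libraries numbered 1 to 8 and triangles for 9 to 16, and bars give the mean and SD of 4 libraries. In Smad7 and Skil the 4 KI female libraries lie below all 4 WT female libraries, and in Smad7, Skil and Nrros the KI male group splits into 2 low circles and 2 triangles at the level of WT males or above.

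Tgfb1, the ligand that microglia themselves make, lies at chr7:25386390-25404506 (GRCm39, plus strand). Its levels were 270, 275, 290 and 284 CPM in WT females, 278, 242, 238 and 272 in KI females, 275, 287, 246 and 291 in WT males and 233, 238, 296 and 256 in KI males, in the order of replicates 1 to 4. KI libraries were lower on average, and the groups overlapped in both sexes. The log2 fold change was -0.11 (SE 0.0536, FDR = 0.214), which did not pass.

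Nrros lies at chr16:31960320-31984521 (GRCm39, minus strand), on the chromosome that also carries App, with 52.8 Mb between them. It is used by microglia and other macrophages, and without it microglia do not mature. In replicate order it was at 110, 101, 109 and 110 CPM in WT females and at 102, 84.6, 77.6 and 93.7 CPM in KI females. It was at 90.4, 106, 101 and 99.1 CPM in WT males and at 79.4, 74.2, 103 and 100 CPM in KI males. Every KI library was below the WT median of 104 CPM, yet within each sex the groups overlapped: KI female replicate 1 and KI male replicates 3 and 4 were at WT levels. The log2 fold change over both sexes was -0.21 (SE 0.0698, FDR = 0.0699). This result was weak: the FDR was no longer below 0.1 in 9 of the 16 fits that leave out a library, and was up to 0.157.

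The 300 bases around the start of a gene (250 before and 50 after) are shown for a member that fell, Nrros, for a receptor that did not, Tgfbr2, and for Cdkn1a, a target gene described further on. Both strands were searched for the Smad binding element CAGAC, which stands in capitals and reads as GTCTG where it lies on the opposite strand. A search was also made for the Smad palindrome GTCTAGAC, which does not contain that element. The sequences are from RefSeq on GRCm38.p6, at chr16:32165545-32165844, chr9:116175314-116175613 and chr17:29093519-29093818, and are read 5′ to 3′ on the gene's strand.
Nrros: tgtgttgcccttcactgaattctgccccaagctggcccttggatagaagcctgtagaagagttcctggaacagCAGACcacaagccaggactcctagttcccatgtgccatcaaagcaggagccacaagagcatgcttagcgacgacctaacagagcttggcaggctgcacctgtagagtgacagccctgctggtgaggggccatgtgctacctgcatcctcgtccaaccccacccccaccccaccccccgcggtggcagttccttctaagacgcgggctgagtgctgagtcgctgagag
Tgfbr2: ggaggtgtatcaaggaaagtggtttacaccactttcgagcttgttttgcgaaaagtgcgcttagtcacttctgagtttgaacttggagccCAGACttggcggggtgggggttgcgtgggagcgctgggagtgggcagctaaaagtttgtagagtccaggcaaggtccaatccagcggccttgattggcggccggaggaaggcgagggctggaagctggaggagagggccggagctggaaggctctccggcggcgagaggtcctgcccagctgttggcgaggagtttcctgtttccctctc
Cdkn1a: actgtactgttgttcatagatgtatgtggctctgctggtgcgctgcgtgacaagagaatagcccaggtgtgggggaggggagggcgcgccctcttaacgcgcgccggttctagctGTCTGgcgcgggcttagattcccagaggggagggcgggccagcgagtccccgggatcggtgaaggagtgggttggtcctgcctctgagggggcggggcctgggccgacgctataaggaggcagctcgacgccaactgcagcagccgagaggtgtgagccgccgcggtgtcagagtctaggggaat
Each of the 3 windows holds 1 such element. Of all 32851 windows of this length in the table, 49.6% hold CAGAC on either strand and 0.213% hold the palindrome, so a single match is common. The windows of Tgfb1, Ski and Smad3 have no match, and neither have those of the target genes Id2, Junb and Klf11, which says only that these letters are not in these windows.

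Neither receptor passed the test between genotypes. Tgfbr1 (chr4:47353134-47414931, plus strand), the signalling kinase of the pair, was at 1554, 1358, 1486 and 1321 CPM in WT females, 1711, 1662, 1354 and 1440 in KI females, 1376, 1582, 1385 and 1411 in WT males and 1466, 1352, 1534 and 1234 in KI males. Its log2 fold change was 0.03 (SE 0.0622, FDR = 0.808). Tgfbr2 (chr9:115913361-116004800, minus strand), which binds the ligand, stayed between 538 and 598 CPM in all libraries but KI male replicate 3, at 651 CPM. On the log2 scale it had the smallest SD of the 10 genes over the 16 libraries, 0.064. Its log2 fold change was 0.03 (SE 0.0398, FDR = 0.757). Several antisense genes overlap Tgfbr1, Tgfbr2, Nrros, Smad4 and Skil; the 3 that have a row in the table reached 3 counts at most in any library.

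The Smads that carry the signal differed little. Smad2 (chr18:76374327-76445180, plus strand) ranged from 53.3 to 62.7 CPM in WT and from 51.4 to 61.7 CPM in KI libraries, with a log2 fold change of -0.04 (SE 0.0497, FDR = 0.685). Smad4 (chr18:73769343-73836915, minus strand), the partner that all such complexes share, ranged from 51.1 to 62.8 and from 51.3 to 60.7 CPM, with -0.06 (SE 0.0502, FDR = 0.557). Smad3 (chr9:63554049-63665476, minus strand) was at 135, 118, 133 and 138 CPM in WT females, 122, 107, 123 and 128 in KI females, 119, 128, 126 and 139 in WT males and 112, 105, 131 and 129 in KI males. Its difference of -0.11 on the log2 scale (SE 0.0549, FDR = 0.209) was about the size of that of Tgfb1 and did not pass.

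Smad7, the inhibitory Smad, showed the strongest difference of the members. It lies at chr18:75500374-75529006 (GRCm39, plus strand). In replicate order it was at 198, 184, 217 and 204 CPM in WT females and at 133, 129, 132 and 175 CPM in KI females. It was at 144, 166, 155 and 177 CPM in WT males and at 110, 106, 165 and 163 CPM in KI males. All 4 KI females were below all 4 WT females, with KI female replicate 4 well above the other 3, whereas of the KI males only replicates 1 and 2 were below the WT males. Over both sexes the log2 fold change was -0.37 (SE 0.0971, FDR = 0.0230), and it stayed below an FDR of 0.1 in each of the 16 fits without a library.

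Skil, the SKI-like repressor also known as SnoN, lies at chr3:31148816-31176740 (GRCm39, plus strand). Its levels in replicate order were 659, 628, 696 and 610 CPM in WT females and 482, 427, 427 and 503 CPM in KI females. In males they were 476, 534, 548 and 544 CPM in WT and 432, 422, 590 and 540 CPM in KI. WT and KI females were again apart, and again KI male replicates 1 and 2 were low, while replicate 4 was within the range of the WT males and replicate 3 was above it. The log2 fold change over both sexes was -0.29 (SE 0.0816, FDR = 0.0320), which also held in each of the 16 fits without a library. Its paralogue Ski (chr4:155238532-155307543, minus strand) did not pass the test: it ranged from 447 to 513 CPM in WT and from 445 to 567 CPM in KI libraries, with a log2 fold change of 0.02 (SE 0.0475, FDR = 0.881).

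**Figure D2:**
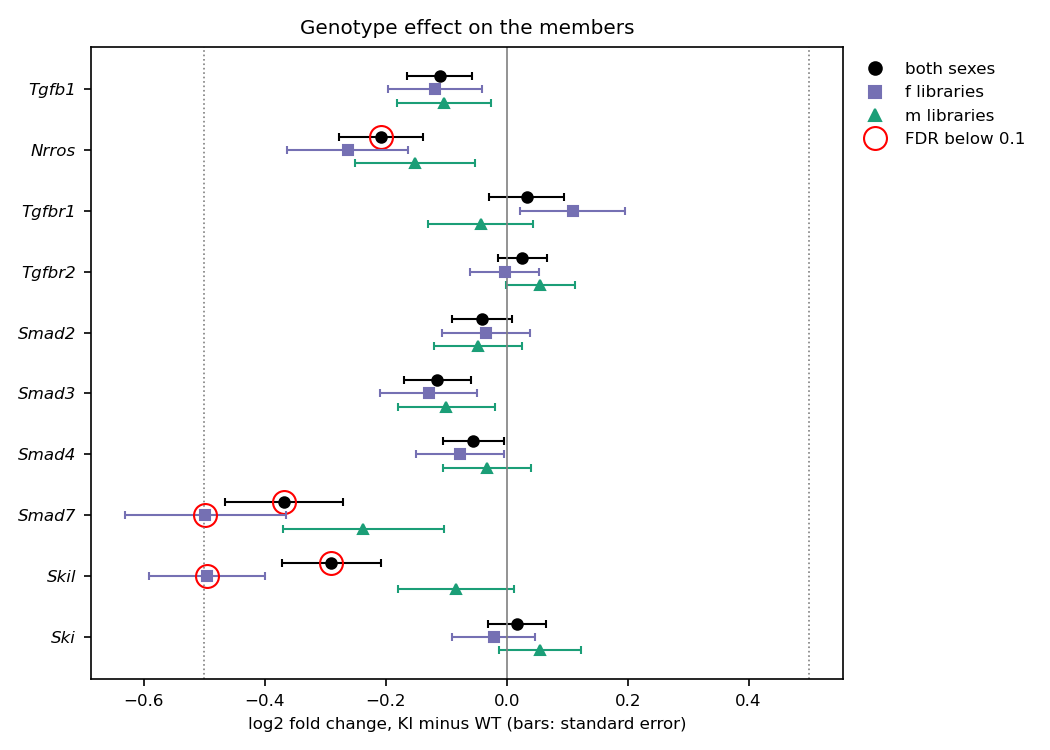
Log2 fold change of KI against WT (horizontal axis) for the 10 genes, over both sexes (circles), in female libraries (squares) and in male libraries (triangles), with standard errors as bars; red rings mark an FDR below 0.1 and dotted lines the fold threshold of 0.5. Smad7 and Skil are lowest, at -0.37 and -0.29 over both sexes, and their female estimates lie at the dotted line.

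In female libraries alone, Smad7 was 29.2% lower (log2 fold change -0.498, SE 0.133, FDR = 0.0353) and Skil 29.1% lower in KI (-0.496, SE 0.0957, FDR = 0.00456). These were 2 of 10 members below an FDR of 0.1, where 9.42% of all tested genes passed and 6.11% passed as lower; 0 of 10 were called with the fold threshold, which both missed narrowly, against 7.15% of all tested genes (3 members at an unadjusted p under 0.05, all by edgeR). Of all tested genes, 12.6% had KI and WT females that did not overlap. Nrros was at -0.26 in females (SE 0.0994, FDR = 0.134), and at -0.27 with an FDR of 0.0569 where the female libraries were fitted on their own. In the same female comparison, markers of some other cell types were lower in KI and those of others were higher. Of 10 endothelial markers 8 were called lower, with a median log2 fold change of -1.02. Their summed levels were 93.2 to 226 CPM in WT and 84.4 to 104 CPM in KI. Of 8 astrocyte markers 3 were called lower, with a median of -0.58 and summed levels of 619 to 1185 CPM in WT and 491 to 782 CPM in KI. Of 6 tested pericyte and fibroblast markers 1 was called lower, with a median of -0.53. Of 12 neuron markers 3 were called higher, with a median of 0.35. The neuron sums were 638 to 891 CPM in WT and 993.5 to 1333 CPM in KI. None of these markers was at 0 in 8 or more libraries, and their part in the female differences was not tested. In fits without KI female replicate 1, 2 or 3 or WT female replicate 1 or 3, Smad7 in females was no longer below an FDR of 0.1, with an FDR of up to 0.114, while Skil stayed below it in all 16.

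In male libraries 0 of 10 members passed in edgeR, at an FDR alone or with the fold threshold, and 0 had an unadjusted p under 0.05; 0.269% and 0.252% of all tested genes did so. In males the endothelial markers went the other way, with a median of 0.82, 1 of 10 called higher, and summed levels of 58.0 to 71.5 CPM in WT and 81.3 to 120 CPM in KI, while the astrocyte median was 0.15 with 0 of 8 called by edgeR and 0 at an unadjusted p under 0.05. The male median of 8 oligodendrocyte markers was 0.59, with 0 called and 7 at an unadjusted p under 0.05 by edgeR. Their summed levels were 236 to 277 CPM in WT males and 316 to 420 CPM in KI males. The male median of 6 tested pericyte and fibroblast markers was 0.40, with 0 called. The part of these cells' RNA in the male values was not tested. Smad7 was at -0.24 (SE 0.134, FDR = 0.512), Nrros at -0.15 (SE 0.0998, FDR = 0.581) and Skil at -0.08 (SE 0.0956, FDR = 0.776). The difference between the sexes was tested directly. For Skil the genotype effect was 0.41 lower in females than in males on the log2 scale (-0.41, SE 0.135), with an unadjusted p of 0.00704 and an FDR of 0.537 from edgeR's fit across all genes, so it did not pass. It was the only member with an unadjusted p under 0.05, and 0 of 10 passed at FDR below 0.1, as did 0.0274% of all tested genes under either rule. For Smad7 the interaction was -0.26 (SE 0.189, FDR = 0.965). Averaged over genotypes, 0 of 10 members differed between the sexes in edgeR, with 0 at an unadjusted p under 0.05, beside 0.0713% of all tested genes at FDR below 0.1 and 0.0604% with the fold threshold; the largest difference was that of Smad7, 0.19 higher in females (SE 0.0970, FDR = 0.766).

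The library numbers in the labels divide each group into 2 libraries numbered 1 to 8 and 2 numbered 9 to 16. What these numbers stand for is not given in the sources used here. In libraries 1 to 8 alone, 5 of 10 members were below an FDR of 0.1, all lower in KI, where 19.9% of tested genes passed: Smad7 at -0.54 (SE 0.0588, FDR = 0.000142), Skil at -0.38 (SE 0.0721, FDR = 0.00509), Nrros at -0.27 (SE 0.0779, FDR = 0.0370), Tgfb1 at -0.17 (SE 0.0597, FDR = 0.0834) and Smad3 at -0.18 (SE 0.0641, FDR = 0.0895). In libraries 9 to 16 alone, 0 of 10 passed in edgeR, with 0 at an unadjusted p under 0.05, where 0.525% of tested genes passed. There Smad7 was at -0.23 (SE 0.107, FDR = 0.587), Skil at -0.21 (SE 0.105, FDR = 0.622) and Nrros at -0.16 (SE 0.0851, FDR = 0.671), each of the same sign and smaller. With the number range as a term, Smad7, Skil and Nrros stayed below an FDR of 0.1, and Smad3 joined them.

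Across libraries, Smad7, Skil and Nrros varied together also within their groups. With the 4 group means removed, Pearson's r over the 16 libraries was 0.89 for Smad7 and Skil, 0.88 for Nrros and Skil, and 0.77 for Nrros and Smad7. Smad3 had r = 0.85 with Smad7, whereas Smad2 had -0.0054 and Tgfbr1 -0.09. Of the 45 pairs of members, 41 were positive, with a median r of 0.51 and a range from -0.09 to 0.89. These values describe libraries that share depth, cell makeup and preparation, and the library that was high for Smad7 in KI females (replicate 4) was high for Skil too. Removing group means also leaves the split within KI males. There Smad7 was at 110 and 106 CPM in libraries 1 to 8 and at 165 and 163 CPM in libraries 9 to 16. Skil and Nrros were likewise lower in the first of these pairs. The part of this split in r was not tested.

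**Figure D3:**
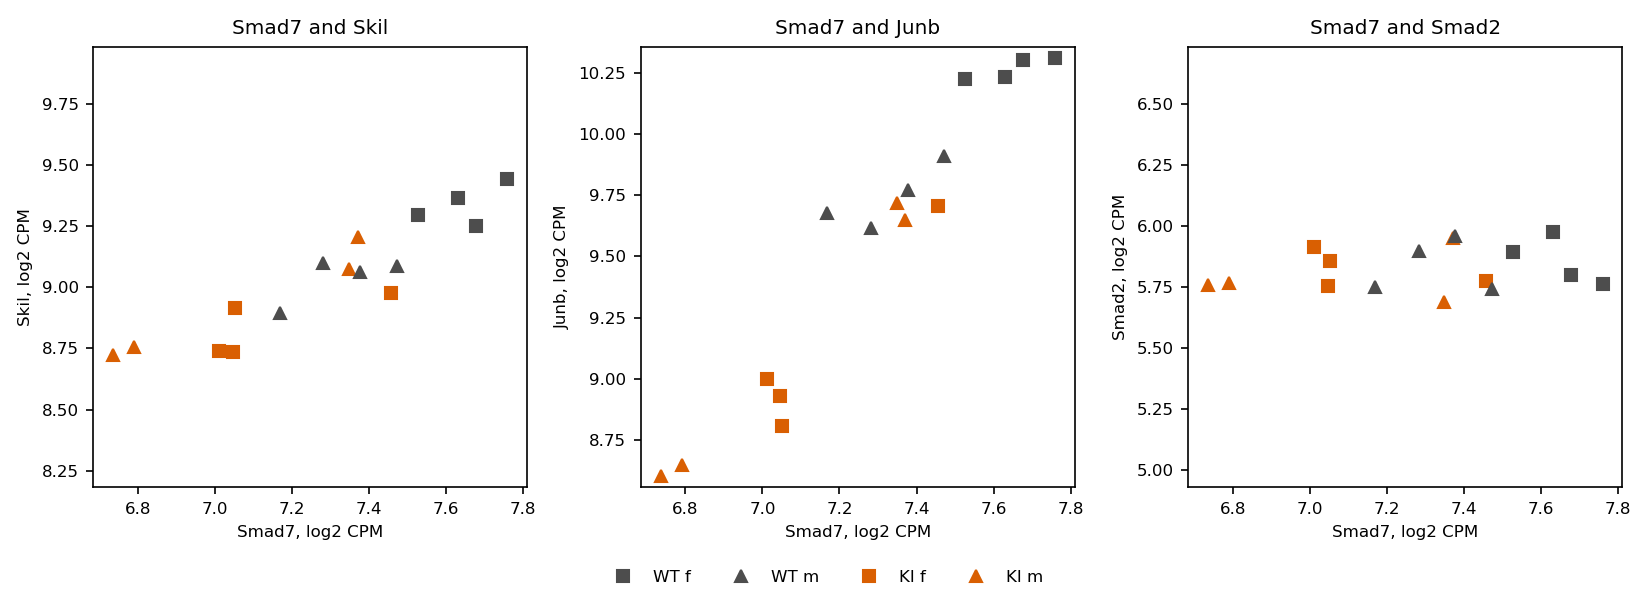
Log2 CPM of Skil, Junb and Smad2 (vertical axes, each spanning the same range) against that of Smad7 (horizontal axes) in 16 libraries; squares are female, triangles male, dark points WT and orange points KI. Skil and Junb follow Smad7 within and between groups, with r of 0.89 and 0.95 once group means are removed, and Smad2 does not, with r of -0.0054. These r values still hold the split of KI males by library number.

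Of 9411 well-expressed genes, those whose residual pattern was most like Smad7 were Ier5 (r = 0.96), Zc3h12a (0.96) and Junb (0.95) over the same 16 libraries. Ier5 is an immediate early response gene, Zc3h12a encodes the RNase Regnase-1, which degrades inflammatory transcripts, and Junb encodes an AP-1 subunit. All 3 were lower in KI, at -0.69, -1.05 and -0.81 on the log2 scale (FDR 0.00890, 0.00650 and 0.00632). For Skil they were Eif4a1, a translation initiation helicase (r = 0.93), the transcription factor Etv6 (0.92) and the B-cell linker adaptor Blnk (0.92), with smaller differences of -0.32, -0.20 and -0.22. For Nrros they included the chromatin remodeller Chd7 (r = 0.89) and Skil itself (0.88). The other members had different neighbours: Nuak1, Wdr81 and Akna for Tgfb1 (r from 0.92 to 0.93), Mob1a, Eif4g2 and Adam17 for Tgfbr1 (0.96 to 0.98), Use1, Scamp2 and Cep68 for Tgfbr2 (0.92 to 0.93), Dyrk1a, Abi1 and Hnrnph2 for Smad2 (0.90 to 0.92), Sh2b2, Sema4c and Zfyve26 for Smad3 (0.90 to 0.92), Grb2, Mcmbp and Ptcd2 for Smad4 (0.91 to 0.95) and Zfp691, Ttc28 and Ppp1r18 for Ski (0.90 to 0.95).

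Of 138 other genes listed around the pathway, 133 were tested, of which 1 was called higher and 8 lower in KI (4.33% and 4.30% of all tested genes were called in those directions). The 80 listed genes of the signalling machinery, from ligands to nuclear partners and kinases, held few of these: of 76 tested, 1 was higher and 2 lower, with a median log2 fold change of -0.03.

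Among 22 tested ligands and latency genes, the bone morphogenetic protein gene Bmp2 was lower (-0.64, SE 0.173, FDR = 0.0251) and the inhibin subunit gene Inha was higher (0.74, SE 0.267, FDR = 0.0886), both at low levels, with WT means of 7.05 ± 1.76 and 1.19 ± 0.545 CPM (SD, n = 8). The call of Inha was lost in 10 of the 16 fits without a library, and held without WT male replicate 1 or 4, KI female replicate 1, WT female replicate 4 or KI male replicate 3 or 4. Itgb5, the most abundant of the list at 1701 ± 132 CPM in WT and part of an integrin that can release active TGF-beta, was at -0.07 (SE 0.0549, FDR = 0.467).

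Of 12 other receptors of the family, 0 were called by edgeR, DESeq2 or limma, and 1 had an unadjusted p under 0.05 in edgeR: Acvr1c, a type I receptor for activins, at 0.42 (SE 0.156, FDR = 0.0971). Acvr2b was at -0.16 (FDR = 0.218), Bmpr1b at -0.46 (FDR = 0.289) and the abundant Bmpr2 at 0.06 (FDR = 0.516).

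Of 21 other Smads and regulators, 1 was called: Tgif1, a repressor that binds Smads and is itself induced by TGF-beta, was lower (-0.83, SE 0.195, FDR = 0.0123). The ubiquitin ligase genes Smurf2 (-0.12, FDR = 0.0753) and Nedd4l (0.16, FDR = 0.0972) passed the FDR but not the fold threshold, and Pmepa1, an abundant feedback gene that holds back receptor signalling, was at 0.04 (FDR = 0.701). Of 12 nuclear partners, 0 were called and 3 were lower at FDR below 0.1 by edgeR: the acetyltransferase genes Ep300 (-0.15, FDR = 0.0547) and Crebbp (-0.10, FDR = 0.0908) and the transcription factor gene Runx1 (-0.20, FDR = 0.0843); the most abundant, the corepressor gene Ncor1, was at 0.03 (FDR = 0.694). Of 9 genes of the kinase branch that runs through TAK1, 0 were called, 4 had an unadjusted p under 0.05, and the p38 gene Mapk14 (-0.12, FDR = 0.0643) and its activator Map2k3 (-0.27, FDR = 0.0711) were lower at FDR below 0.1. Traf6 was at -0.20 (FDR = 0.114) and the most abundant, Tab2, at -0.04 (FDR = 0.602). Of all tested genes, 14.8% passed an FDR of 0.1 in either direction and 7.82% passed as lower. Their share at an unadjusted p under 0.05 is not given here. Acvr1c, Smurf2, Nedd4l, Ep300, Crebbp, Runx1, Mapk14 and Map2k3, which passed the FDR alone, kept this in 3 to 10 of the 16 fits without a library.

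**Figure D4:**
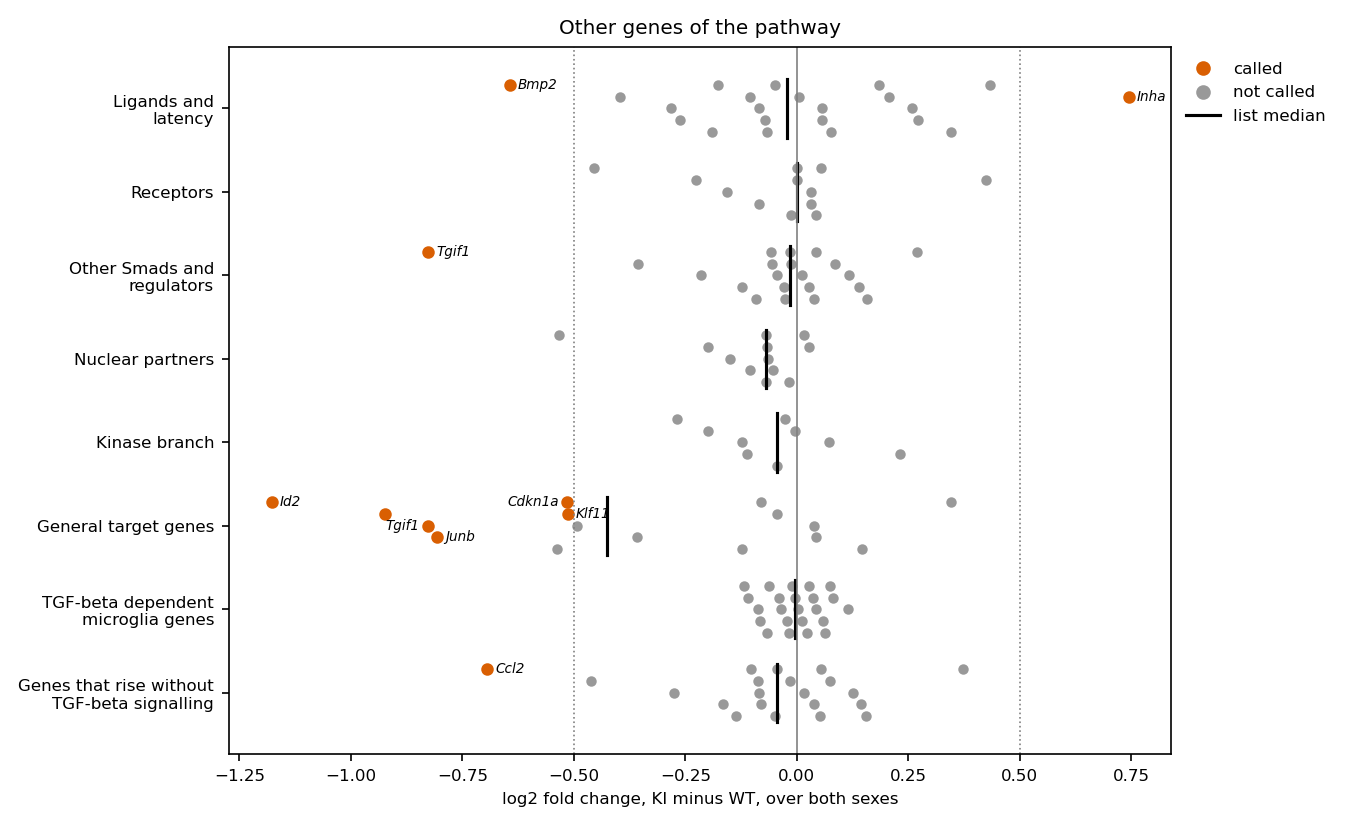
Log2 fold change of KI against WT over both sexes (horizontal axis) for the tested genes of 8 pathway lists; each point is a gene, orange points are called, most of them with names, black bars are list medians and dotted lines mark the fold threshold of 0.5. The general target genes have 6 called genes, all lower, and a median of -0.43, and the 23 TGF-beta dependent microglia genes lie close to 0.

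General target genes, which respond to TGF-beta or to the related BMPs in many cell types, had the most calls of the pathway lists over both sexes. Of 16 tested, 6 were called lower and 0 higher, with a median log2 fold change of -0.43. Of all tested genes 4.30% were called lower and 4.33% higher. In females 7 were called lower, with a median of -0.67, where 7.15% of all tested genes were called in either direction. The endothelial, astrocyte and neuron markers given above also differed in females. In males 0 were called by edgeR, with 4 at an unadjusted p under 0.05, a median of 0.0022 and 8 of 16 below 0. Of all tested genes 0.252% were called in males and 0.0274% for the interaction. The share of all tested genes at an unadjusted p under 0.05 is not given here. For the interaction of genotype and sex 0 were called by edgeR, with 6 at an unadjusted p under 0.05 and a median of -0.62, and the part of the marker differences was not tested. Among the 6 called over both sexes were Id2, an inhibitor of basic helix-loop-helix factors that BMPs induce and that TGF-beta can lower (-1.18, SE 0.204, FDR = 0.00151), Tgif1 as above, Junb (-0.81, SE 0.171, FDR = 0.00632), the cell cycle inhibitor gene Cdkn1a (-0.51, SE 0.140, FDR = 0.0267) and the Krüppel-like factor gene Klf11 (-0.51, SE 0.143, FDR = 0.0296). Id2 was at 199 to 229 CPM in WT females and at 55.6 to 97.97 CPM in KI females, at 117 to 139 CPM in WT males, and in KI males at 38.5 and 44.6 in replicates 1 and 2 and at 101 and 117 in replicates 3 and 4. Leaving out 1 library brought Cdkn1a to -0.45 (without KI male replicate 2) and Klf11 to -0.42 (without KI female replicate 1), under the fold threshold. As with Smad7, the first 2 KI male libraries of Id2 were the lowest. The others, at 101.2 and 116.9 CPM, were nearer to the WT males but below the lowest of them, at 117.3 CPM.

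Of the 10 target genes that were not called, Klf10, the TGF-beta inducible early gene, passed the FDR alone (-0.49, SE 0.166, FDR = 0.0707). Id1 and Id3, both at low levels, were at -0.54 (FDR = 0.409) and -0.36 (FDR = 0.313). Pmepa1 was at 0.04 (FDR = 0.701), Tgfbi, which encodes an extracellular matrix protein, at -0.04 (FDR = 0.762), and Ltbp3, which binds latent TGF-beta, at 0.34 (FDR = 0.137). Several of the lower genes, such as Junb, Id2 and Cdkn1a, are also known as rapid responses to many other stimuli, and with the genes of that kind left out of the list Tgif1 and Klf11 remained called. With group means removed, r with Smad7 over the 16 libraries was 0.93 for Id2, 0.94 for Tgif1 and 0.66 for Cdkn1a, beside 0.11 for Pmepa1 and 0.21 for Tgfbi. It was also above 0 for Klf10 (0.83), Klf11 (0.58) and the target gene Bhlhe40 (0.64). It was below 0 for the target genes Col1a1 (-0.55), Ccn2 (-0.42), Ltbp3 (-0.35), Id3 (-0.29), Fn1 (-0.25) and Id1 (-0.19). Of these, Col1a1, Ccn2, Id3 and Id1 were at low levels, with WT means of 6.61, 2.86, 2.32 and 2.60 CPM. Col1a1 is also among the pericyte and fibroblast markers used here, and the part of RNA from other cells in these r values was not tested.

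Genes whose level in microglia depends on TGF-beta showed small differences. Of 23 tested, 0 were called by edgeR, DESeq2 or limma and 0 passed an FDR of 0.1 in edgeR, with 3 at an unadjusted p under 0.05; DESeq2 and limma each put 1, C1qb, below an FDR of 0.1. The median log2 fold change was -0.0037. C1qb, a subunit of the complement starter C1q, was at -0.12 (SE 0.0459, FDR = 0.116) and the purinergic receptor gene P2ry13 at 0.11 (SE 0.0501, FDR = 0.163). Csf1r, the colony-stimulating factor receptor gene and the most abundant of the list at 5699 ± 349 CPM in WT (SD, n = 8), was at -0.02 (SE 0.0481, FDR = 0.877).

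Of 21 tested genes that rise in microglia when TGF-beta signalling is removed, 0 were called higher and 1 lower in KI, the chemokine gene Ccl2 (-0.69, SE 0.229, FDR = 0.0646), whose call was lost in 9 of the 16 fits without a library (KI female replicate 1, 2 or 3, WT female replicate 1, 3 or 4, KI male replicate 1 or 2, or WT male replicate 3), with an FDR of up to 0.135. Cxcl16, another chemokine gene, was lower (-0.46, SE 0.112, FDR = 0.0139) and the lipoprotein lipase gene Lpl higher (0.37, SE 0.0889, FDR = 0.0129), both short of the fold threshold. Apoe, the most abundant at 3649 ± 567 CPM in WT (SD, n = 8), was at -0.04 (SE 0.102, FDR = 0.850).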

How the data were processed

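The deposited table held raw read counts per gene, 1 column for each of 16 libraries; the authors aligned paired-end reads of stranded libraries with STAR to GRCm39, with a human App sequence added, and took its gene counts. The strand setting of the counting is not given in the sources used here. No column was left unused. Groups came from the sample titles. A gene was tested if 8 or more libraries held 5 or more of its counts, with edgeR 4.0.16 (TMM, glmQLFit with a trended dispersion, glmQLFTest) in R 4.3.3, with genotype and sex as terms for the effects over both sexes and over both genotypes, and with 4 group means for the effects within a sex and the interaction. Adjustment was by Benjamini-Hochberg over all 18227 genes. A call needed, as in the study, a log2 fold change beyond 0.5 in either direction with an FDR below 0.1. Standard errors are the log2 fold change over the square root of F. Log2 CPM had a prior count of 2. DESeq2 1.42.0 and limma 3.58.1 (voom) were alternatives, as were other scalings, filters, terms and subsets of libraries. The fit was tested on simulated counts. Lengths and positions came from a GRCm39 annotation.

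The 10 members, the other lists and the tests were chosen with earlier results of these data known. Named from each other list were all called genes, otherwise the 3 smallest p-values, and the most abundant gene; for each member, the 3 genes with the highest r at a mean log2 CPM of at least 3. The genes singled out among the general targets beside these, and those shown as sequences, were chosen after their values were seen. A few genes that this rule names are not reported here.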

Additional observations from a re-analysis of the deposited data

Results flagged for a closer look

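In 10 of 144 groups of 4 libraries, the highest or lowest library stood apart from the other 3 by more of the group's range than Dixon's test allows at 95%, where chance would flag about 1 in 20 groups, or 7.2. Among the members, WT male replicate 2 was highest for Tgfbr1 (1582 CPM against 1411 for the nearest, 0.831 of the range), WT female replicate 4 was lowest for Tgfbr2 (538 against 581 CPM, 0.904) and WT female replicate 2 was lowest for Nrros (101 against 109 CPM, 0.831). KI female replicate 4 was highest for Smad7 (175 against 133 CPM, 0.920) and KI male replicate 3 for Ski (567 against 472 CPM, 0.940). Among the other genes named, KI female replicate 4 was highest for Junb (835 against 512 CPM, 0.835), KI male replicate 3 for Traf6 (38.1 against 29.2 CPM, 0.834), WT female replicate 4 for Ltbp3 (27.9 against 21.3 CPM, 0.860), WT female replicate 1 for P2ry13 (487 against 427 CPM, 0.885) and WT male replicate 3 for Ccl2 (95.8 against 74.9 CPM, 0.882). The causes were not tested.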

How the results depend on the processing

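Smad7 and Skil kept their direction under all 15 alternatives, and an FDR below 0.1 under 14 of them. The exception was libraries 9 to 16 alone. The alternatives with an FDR of 0.05 and without the fold threshold reused the main fit. Direction and FDR could not change in them. Scaling by library totals alone gave Nrros -0.16 (FDR = 0.149) and turned Smad2 to 0.011; an FDR of 0.05 dropped Nrros (-0.21) and left 0 other pathway genes called higher. Without the fold threshold 2692 genes, 3 members, 16 lower and 4 higher pathway genes passed. Libraries 1 to 8 alone gave 2503 called genes, 1 called member (Smad7), 5 members at the FDR, 3 higher pathway genes, Tgfb1 at -0.17, Smad3 at -0.18, Tgfbr2 at -0.036 and Ski at -0.025. Libraries 9 to 16 alone gave 80 called genes, 0 members at the FDR, 0 target genes, 0 lower and 0 higher pathway genes, Nrros at -0.16, Smad7 at -0.23, Skil at -0.21, Tgfbr1 at -0.0037 and Smad2 at 0.00084. With the number range as a term Smad3 was -0.12 and passed the FDR. With each sex fitted alone, 2 members were called in females, where Nrros also passed the FDR (-0.27, FDR = 0.0569), and 4 genes in males. The target list without rapid response genes, an alternative chosen after seeing the data, held 2 called genes. The subsets hold fewer libraries than the main fit, and the causes of these changes were not tested.

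The fit with a replicate block put Smad3 below an FDR of 0.1 (-0.12, FDR = 0.0837), called 1 member in females and 3 genes for the interaction in place of 5, and changed no other call of a member. A pairing of samples by replicate number was not seen, though so few pairs cannot exclude it. In 8 pairs of WT and KI libraries with the same number, r of their deviations was -0.33 to 0.135. Of these, 2 pairs were over 0.1, and 2 of 8 WT libraries were closest to their own number. In every group replicates 1 and 2 are libraries numbered 1 to 8 and replicates 3 and 4 are libraries numbered 9 to 16.

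Leaving out 1 library at a time (16 fits) gave 1101 to 2187 called genes, 2 to 4 members at the FDR, 4 to 7 target genes lower, 5 to 10 pathway genes lower and 0 to 3 higher. Nrros was -0.24 to -0.17 and missed the FDR without WT male replicate 2, WT female replicate 1, 3 or 4, KI female replicate 2, 3 or 4, or KI male replicate 1 or 2. Tgfb1 was -0.14 to -0.086 and Ski -0.0094 to 0.042; without KI male replicate 3 Tgfb1 passed (FDR = 0.0621) and Ski changed sign. In females 594 to 2110 genes, 0 to 2 members called and 1 to 2 at the FDR were found, in males 5 to 603 genes (603 without KI male replicate 3) and for the interaction 1 to 43 genes.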
